A study of Rattus norvegicus with 65 samples.

Results

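The genes described here handle iron or control the lipid peroxides that iron feeds, and they were followed in primary neonatal rat cardiomyocytes exposed to 5-fluorouracil (5FU), acetaminophen (Ace) or doxorubicin (Dox). They were chosen by symbol from a list of 10 genes. A row of counts was found for 8 of them, out of 14554 genes in the table: the uptake genes Tfrc and Slc11a2, the ferritin light chain gene Ftl1, the iron regulatory protein genes Aco1 and Ireb2, the mitochondrial transporter gene Abcb8, and the lipid peroxide genes Gpx4 and Acsl4. Fth1 and Slc40a1, which encode the ferritin heavy chain and the iron exporter ferroportin, were not analysed here. PolyA RNA from 65 cultures was sequenced in 10 groups of 6 or 7 libraries. The treatments were 10 mM 5FU, 2.5 mM Ace and 1.25 uM Dox. DMSO1, at 1% DMSO, was the control of 5FU, and DMSO2, at 0.25% DMSO, was the control of both Ace and Dox. Each treatment and each control was sampled at 6 h and at 24 h. Per the study's methods, hearts of several litters were digested on 1 day and the cells pooled, so each group consists of parallel wells from 1 preparation and the p-values measure the spread between cultures, not between animals. All groups were kept overnight without serum and then treated in medium with ITSS, a supplement of insulin, transferrin and selenite.

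Most cells take up iron as transferrin bound to the transferrin receptor (Tfrc), and the divalent metal transporter Slc11a2 moves the freed iron out of the endosome. Ferritin stores it, and Aco1 and Ireb2 encode the iron regulatory proteins, which bind stem-loops in transcripts when iron is scarce, protecting the Tfrc transcript from decay and holding back translation of ferritin. Ferroptosis is a form of cell death driven by iron-dependent peroxidation of membrane lipids. The selenoprotein Gpx4 reduces these peroxides, whereas Acsl4 loads membranes with the polyunsaturated fatty acids that are most easily peroxidised. Cardiomyocytes are rich in mitochondria and iron, and iron has long been studied in the toxicity of Dox to the heart.

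Library totals ran from 14332827 to 25738297 counts, and the lowest count of a listed gene in any library was 463 (Acsl4). Of 8 cardiomyocyte markers, 7 had a row and none of these was at 0 in any group. Levels are given in CPM, counts scaled to the library total after its adjustment by a TMM factor. The summed level of these markers was 30900 to 37200 CPM in DMSO2 at 6 h and 31400 to 40900 CPM in DMSO2 at 24 h. The lists for fibroblasts, endothelial cells, macrophages and erythroid cells were also detected in every group, and in bulk samples fewer cells of a type and less RNA per cell cannot be told apart. In 5 groups 1 library stood apart by its correlation with the others of its group (5FU 6 h library 1, DMSO1 6 h library 3, DMSO1 24 h library 1, Dox 6 h library 7 and Dox 24 h library 7). Results that change without these 5 libraries are given with both values. The library numbers are names only.

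RefSeq promoter entries on the rat assembly GRCr8 were found for 7 of the 8 genes. The 150 bases before the start are shown for Tfrc and Gpx4, which rose at both times in Dox, and for Aco1, which had the largest fall in Dox. Capitals mark matches on either strand to the GC box (GGGCGG), the CCAAT box, the core of the cyclic AMP response element (TGACG) and the hypoxia core (ACGTG).
Tfrc: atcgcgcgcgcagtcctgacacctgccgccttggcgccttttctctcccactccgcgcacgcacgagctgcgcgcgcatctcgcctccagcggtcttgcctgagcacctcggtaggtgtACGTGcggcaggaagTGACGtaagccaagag
Aco1: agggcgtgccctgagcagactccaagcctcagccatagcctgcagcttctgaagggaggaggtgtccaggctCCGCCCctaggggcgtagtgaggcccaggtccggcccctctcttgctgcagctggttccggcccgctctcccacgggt
Gpx4: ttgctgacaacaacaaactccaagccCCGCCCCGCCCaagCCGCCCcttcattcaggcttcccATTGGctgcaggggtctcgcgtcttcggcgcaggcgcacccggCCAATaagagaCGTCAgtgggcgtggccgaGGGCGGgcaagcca

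The Tfrc stretch lies on the minus strand at chr11:81690319-81690468 and holds 1 hypoxia core, a motif found in 10.8% of 33469 RefSeq promoter windows of the same length, and 1 cyclic AMP core, found in 13.4%. The Aco1 stretch lies on the plus strand at chr5:60055745-60055894 and holds 1 GC box, a motif found in 26% of the windows. The Gpx4 stretch lies on the minus strand at chr7:10303630-10303779 and holds 4 GC boxes, of which 2 overlap, 2 CCAAT boxes (23.5% of windows) and 1 cyclic AMP core. The antioxidant response core TGACNNNGC, found in 6.58% of windows, had no match in the 7 genes. A match describes these letters and not a bound site.

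Each drug was compared with its own DMSO control at each time, to ask which of these transcripts respond to a cardiotoxic dose. The doses were not alike in cell death. The study reports lower cell viability with every drug at the later time, but a significant increase in cell death only with Dox. At the earlier time it reports no such increase with any drug, but a significant decrease in viability with Ace. The part of cell death in the Dox results was not tested. A gene was called at a Benjamini-Hochberg FDR below 0.01 in edgeR's quasi-likelihood test over all 14554 genes. In Dox at 24 h all 8 genes were called, with Tfrc, Ftl1, Ireb2 and Gpx4 higher and Slc11a2, Aco1, Abcb8 and Acsl4 lower. In that comparison 81.4% of all genes were called, 40.4% higher and 41% lower. In Dox at 6 h 3 genes rose and 2 fell, against 64.2% of all genes called (31.5% higher, 32.7% lower).

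In 5FU 3 genes rose and 1 fell at 6 h, against 47.9% of all genes called (23.4% higher, 24.5% lower), and 5 rose and 1 fell at 24 h, against 55.8% (28% higher, 27.8% lower). Ace gave 3 rises and no fall at 6 h, against 31.7% of all genes called (16.5% higher, 15.2% lower), and 2 rises and 1 fall at 24 h, against 37.2% (18.2% higher, 19.1% lower). Without the 5 libraries that stood apart, 5 genes were called in Ace at 24 h, Gpx4 and Acsl4 being added. The Acsl4 difference there was 0.22 on the log2 scale (FDR = 0.023) with all libraries and 0.23 (FDR = 0.0037) without the 5. The median log2 fold change of the 8 genes was 0.25 in 5FU, 0.08 in Ace and -0.09 in Dox at 24 h, where that of all genes was within 0.01 of 0. In 5FU at 24 h the libraries of the 2 groups did not overlap for 6 of the 8 genes, against 42.9% of all genes, and in Dox at 24 h for 5, against 68.2%. At 6 h the counts without overlap were 3 in 5FU (28.2% of all genes), 1 in Ace (24.5%) and 3 in Dox (42.6%), and in Ace at 24 h the count was 1 (26.9%).

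**Figure D1:**
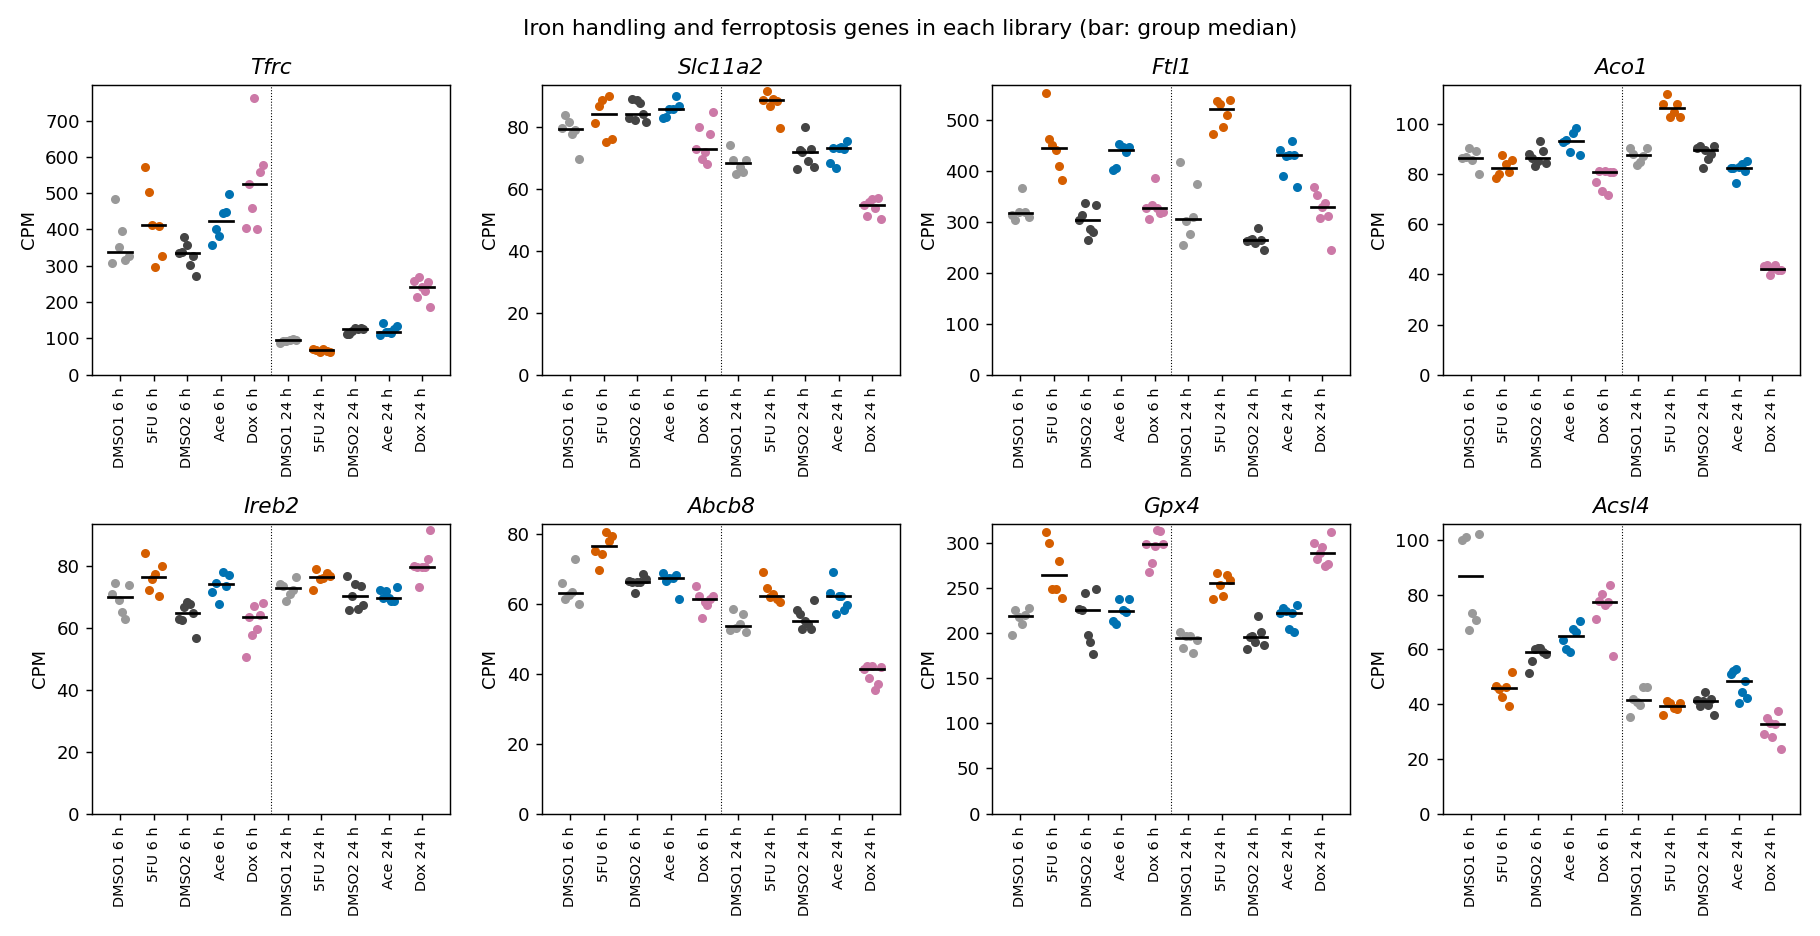
Level of each of the 8 genes in CPM (linear axes from 0) in every library of the 10 groups, with 6 h to the left and 24 h to the right of the dotted line. Points are libraries and bars are group medians; the Tfrc medians run from 67.5 CPM in 5FU at 24 h to 526 CPM in Dox at 6 h, and the Aco1 median in Dox at 24 h is 42 CPM.

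Tfrc had the widest range of the 8 genes, with a ratio of 7.79 between its highest and lowest group median. In DMSO2 its lowest, median and highest levels were 273, 334 and 379 CPM at 6 h and 111, 125 and 129 CPM at 24 h. In DMSO1 they were 309, 339 and 484 CPM at 6 h and 86.9, 94.6 and 99 CPM at 24 h. Every control library at 24 h was thus below every control library at 6 h. Over both controls, Tfrc fell 3.23-fold between 6 h and 24 h (log2 fold change -1.69, SE 0.08, FDR = 6.26e-28), and 5 of the 8 genes fell and none rose over that time, against 64.6% of all genes called (32.7% higher, 31.9% lower). The others that fell were Acsl4 (-0.78), Abcb8 (-0.24), Slc11a2 (-0.23) and Gpx4 (-0.16). Ireb2 (0.10) narrowly failed to pass in edgeR's model and was called higher under some alternatives. It had FDR = 0.0035 in DESeq2 (log2 0.11) and 0.0094 in edgeR with scaling by library size alone. The time in culture is part of every level given below, so each drug is read against the control of its own time.

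With Dox, Tfrc measured 401, 526 and 763 CPM (lowest, median, highest) at 6 h and 186, 241 and 269 CPM at 24 h. At both times all 7 Dox libraries were above all 7 DMSO2 libraries. The receptor transcript rose 1.6-fold at 6 h (log2 0.68, SE 0.11, FDR = 8.46e-08) and 1.94-fold at 24 h (log2 0.96, SE 0.11, FDR = 2.7e-12). With 5FU its levels were 297, 412 and 573 CPM at 6 h and 61.6, 67.5 and 72 CPM at 24 h. The 6 h groups overlapped (log2 0.21, SE 0.11, FDR = 0.111), whereas at 24 h every 5FU library was below every DMSO1 library and Tfrc fell 1.41-fold (log2 -0.49, SE 0.12, FDR = 2.37e-04). The DMSO1 libraries at 24 h were also below those of DMSO2 (log2 -0.37), a difference with FDR = 0.0562 in the model of 10 groups and 0.0021 in a fit of these 2 groups alone.

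Tfrc in Ace ranged from 357 to 498 CPM at 6 h, around a median of 424, and from 109 to 143 CPM at 24 h, around a median of 119. Both overlapped DMSO2. The 6 h rise of 1.28-fold (log2 0.36, SE 0.11, FDR = 0.00668) was lost on leaving out any of 5 libraries: Ace 6 h library 4 (FDR = 0.016), 5 (0.016) or 6 (0.026), or DMSO2 6 h library 5 (0.015) or 7 (0.022). At 24 h the log2 difference was 0.02 (SE 0.11). In the order of the 10 medians, 5FU, DMSO1, then Ace and DMSO2 together, and Dox at 24 h stood clear of each other, and the 5 groups at 6 h overlapped with their neighbours.

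Slc11a2, the endosomal iron transporter, went the other way from Tfrc in Dox and in 5FU at 24 h. It measured 66.6, 72 and 80.3 CPM in DMSO2 and 50.3, 54.8 and 57.3 CPM in Dox at 24 h, with no overlap, and fell by 0.40 on the log2 scale (SE 0.05, FDR = 4.3e-12). At 6 h the fall in Dox was -0.19 (SE 0.05, FDR = 1.98e-04), with overlapping libraries. In 5FU at 24 h it measured 79.9, 88.8 and 91.7 CPM against 65, 68.4 and 74.4 CPM in DMSO1. All 5FU libraries were higher, and the gene rose 1.28-fold (log2 0.35, SE 0.05, FDR = 4.03e-09). Its log2 differences were 0.08 in 5FU at 6 h and 0.01 in Ace at both times, none of which passed.

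Ftl1 rose with 5FU and with Ace. Its lowest, median and highest levels in Ace were 401, 441 and 453 CPM at 6 h and 368, 432 and 458 CPM at 24 h, where DMSO2 had 265, 303 and 336 CPM and 244, 265 and 288 CPM. No Ace library overlapped a control at either time. The rises were 1.43-fold at 6 h (log2 0.51, SE 0.08, FDR = 1.67e-07) and 1.59-fold at 24 h (log2 0.67, SE 0.08, FDR = 2.27e-11). In 5FU it measured 382, 445 and 553 CPM at 6 h and 472, 520 and 539 CPM at 24 h. These lay above all DMSO1 libraries, whose ranges were 303 to 367 and 255 to 418 CPM, and the log2 rises were 0.48 (SE 0.08, FDR = 8.18e-07) and 0.67 (SE 0.08, FDR = 1.33e-10).

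In Dox, Ftl1 measured 306, 327 and 385 CPM at 6 h and 245, 329 and 369 CPM at 24 h, overlapping DMSO2 both times. The difference passed at 24 h (log2 0.28, SE 0.08, FDR = 5.13e-04) and not at 6 h (log2 0.13, SE 0.08, FDR = 0.117). A direct contrast of Dox with Ace put Ftl1 lower in Dox by 0.38 on the log2 scale at 6 h (FDR = 1.62e-05) and by 0.39 at 24 h (FDR = 3.75e-06).

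The ferritin counts are uncertain in 1 respect. LOC100360087, which RefSeq lists with Ftl1 as a synonym, has a row of its own, and reads of near-identical transcripts can be split between such rows. Its medians, 271 CPM in DMSO2 and 441 CPM in Ace at 24 h, were close to those of Ftl1. With both rows added, the log2 fold changes of ferritin light chain were 0.45 and 0.72 in 5FU, 0.52 and 0.68 in Ace and 0.13 and 0.26 in Dox (6 h and 24 h), and no call of Ftl1 changed.

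The heavy chain has only a relative in the table used here. Fth1-ps5, which RefSeq annotates as a pseudogene, had medians from 1770 CPM in DMSO1 at 6 h to 2700 CPM in Dox at 24 h, and whether its reads come from the heavy chain transcript was not tested. It rose in Dox by 0.35 and 0.52, in 5FU by 0.38 and 0.31, and in Ace by 0.26 at 24 h (log2). Its difference in Ace at 6 h, 0.08, did not pass.

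The regulatory protein genes moved differently. Aco1, whose protein is a cytosolic aconitase when it carries an iron-sulphur cluster and an RNA-binding regulator when it does not, measured 82.6, 89.5 and 91.4 CPM in DMSO2 and 39.9, 42 and 43.8 CPM in Dox at 24 h. It fell 2.09-fold (log2 -1.06, SE 0.04, FDR = 1.75e-37), the largest fall of any listed gene against its drug's control. At 6 h Dox libraries ran from 71.8 to 81.4 CPM, just below the DMSO2 range of 83.2 to 93.3 CPM, with a log2 fold change of -0.16 (SE 0.03, FDR = 3.77e-05). The fall therefore grew by 0.91 on the log2 scale from 6 h to 24 h (SE 0.05, FDR = 2.31e-25).

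Aco1 rose in 5FU at 24 h, where it measured 103 to 112 CPM against 83.5 to 90.4 CPM in DMSO1 (log2 0.28, SE 0.04, FDR = 5.91e-10), and not at 6 h (log2 -0.06). In Ace at 24 h its log2 difference was -0.11 (SE 0.03, FDR = 0.00606) with overlapping libraries. That call was lost on leaving out any of 9 libraries: Ace 24 h libraries 1, 2, 3, 4 and 6 and DMSO2 24 h libraries 1, 2, 4 and 7 (FDR 0.011 to 0.042).

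Ireb2, the regulator that is removed by proteolysis when iron is plentiful, stayed within a narrow range, with a ratio of 1.25 between the highest and lowest group median. It measured 73.3, 79.8 and 91.8 CPM in Dox and 65.9, 70.5 and 76.9 CPM in DMSO2 at 24 h. These overlapped, and the rise was 0.20 on the log2 scale (SE 0.05, FDR = 2.03e-04). It rose by 0.20 also in Ace at 6 h (SE 0.05, FDR = 9.69e-04). In 5FU at 6 h the difference of 0.14 had FDR = 0.0164 in edgeR and 0.0073 in DESeq2.

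Abcb8, an inner-membrane transporter of mitochondria that has been tied to iron export from them, fell in Dox at 24 h and rose in 5FU. It measured 35.4, 41.4 and 42.2 CPM in Dox and 52.8, 55.3 and 61.3 CPM in DMSO2 at 24 h. No library overlapped, and the fall was 1.4-fold (log2 -0.49, SE 0.04, FDR = 7.31e-16). At 6 h the difference of -0.12 had FDR = 0.0115. In 5FU the log2 rises were 0.24 at 6 h (SE 0.05, FDR = 9.2e-06) and 0.21 at 24 h (SE 0.05, FDR = 6.14e-05). The rise in Ace at 24 h (log2 0.14, SE 0.04, FDR = 0.00489) was lost without Ace 24 h library 2 (FDR = 0.02) or DMSO2 24 h library 3 (0.015), 5 (0.011) or 6 (0.016).

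Gpx4, the enzyme that reduces lipid peroxides in membranes, rose in Dox and 5FU at both times. In Dox it measured 267, 298 and 314 CPM at 6 h and 274, 288 and 312 CPM at 24 h. DMSO2 had 177, 225 and 249 CPM and 182, 195 and 219 CPM, so that no library overlapped at either time. The rises were 1.37-fold (log2 0.45, SE 0.06, FDR = 1.42e-10) and 1.48-fold (log2 0.57, SE 0.06, FDR = 2.72e-14).

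In 5FU, Gpx4 ranged from 239 to 312 CPM at 6 h and from 237 to 266 CPM at 24 h, above the DMSO1 ranges of 198 to 227 and 178 to 201 CPM. The log2 rises were 0.33 (SE 0.06, FDR = 4.73e-06) and 0.40 (SE 0.06, FDR = 3.84e-08). The Dox rise at 24 h exceeded that of 5FU by 0.16 (95% interval from -0.0031 to 0.33, FDR = 0.0679), and this difference did not pass. In Ace the differences were 0.06 at 6 h (FDR = 0.445) and 0.16 at 24 h (FDR = 0.014). The latter had FDR = 0.0085 without the 5 libraries that stood apart.

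Acsl4, which activates arachidonic and related fatty acids for membrane lipids, had its lowest group median in Dox at 24 h and its highest in DMSO1 at 6 h. In Dox at 6 h it measured 57.6, 77.2 and 83.4 CPM against 51.3, 59 and 60.6 CPM in DMSO2, and at 24 h 23.7, 32.7 and 37.3 CPM against 36, 41.1 and 44.5 CPM. It rose at 6 h (log2 0.37, SE 0.08, FDR = 6.53e-05) and fell at 24 h (log2 -0.38, SE 0.09, FDR = 5.21e-05), a turn of -0.75 between the times (SE 0.12, FDR = 9.11e-08). Libraries overlapped at both times. Dox 6 h library 7, which stood apart, was the lowest at 57.6 CPM, and the rise was 0.43 without the 5 libraries. With scaling by library size alone the 6 h difference was 0.21 (FDR = 0.02), on a scale where the median of all genes stood at -0.15.

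The size of the Acsl4 difference in 5FU at 6 h varied with the control it was set against. At 6 h it measured 39.4, 45.9 and 51.8 CPM in 5FU, and in DMSO1 libraries 1 to 6 it measured 100, 101, 66.9, 73.4, 70.7 and 102 CPM. Against DMSO1 it fell 1.89-fold (log2 -0.92, SE 0.09, FDR = 8.88e-14), with no overlap. DMSO1 was itself above DMSO2 at 6 h without overlap (log2 0.56, SE 0.08, FDR = 4.98e-07), the only one of the 8 genes called between the controls, against 16.5% of all genes called and 5.07% without overlap. Against DMSO2 at 6 h, a comparison added after the data were seen, the 5FU level was lower by 0.35 on the log2 scale (SE 0.09, FDR = 2.9e-04). At 24 h the difference from DMSO1 was -0.09 (SE 0.09, FDR = 0.384), with both groups between 35.2 and 46.4 CPM. In the added comparison of 5FU with DMSO2 at 6 h, Tfrc (log2 0.35, FDR = 0.0044) and Ireb2 (0.25, FDR = 1.4e-05) were called higher. Neither was called against DMSO1 in the main fit. Ftl1, Abcb8 and Gpx4 were called higher against both controls, and Slc11a2 and Aco1 were called against neither.

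The DMSO1 libraries at 6 h also varied in Xirp2 and Nppb, genes outside the lists used here. Xirp2, which encodes a protein of the myocyte's adhesion sites, measured 1200, 1510, 115, 274, 738 and 1490 CPM in libraries 1 to 6, and Nppb, the gene of the brain natriuretic peptide, 484, 702, 30.7, 196, 422 and 883 CPM. The 3 libraries with Acsl4 at 100 CPM or more were the 3 highest in both. In DMSO2 at 6 h Xirp2 ran from 65.6 to 111 CPM and Nppb from 28 to 40.2 CPM. The 5FU libraries at 6 h were higher in both (115 to 376 and 108 to 215 CPM), yet had the lowest Acsl4 median at that time, 45.9 CPM. Dox 6 h library 7, low in Acsl4, was also the lowest Dox library at 6 h in Xirp2 (106 CPM) and Nppb (27.4 CPM). Cell type markers differed between the controls at 6 h as well. In DMSO1, 6 of 7 fibroblast markers (median log2 difference -0.49) and 4 of 6 endothelial markers (-0.56) were lower than in DMSO2, and 0 were higher. Of 7 cardiomyocyte markers 2 were higher and 1 lower, and no macrophage or erythroid marker was called. The part of this variation and of these markers in the Acsl4 result was not tested.

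**Figure D2:**
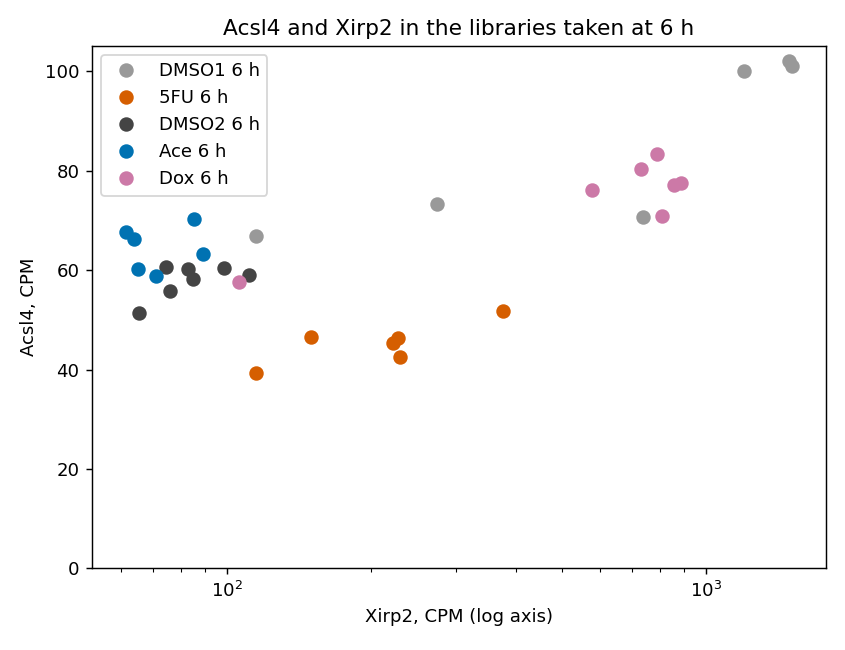
Acsl4 (CPM, linear axis from 0) against Xirp2 (CPM, log axis) in each library taken at 6 h, coloured by group. DMSO1 libraries spread from 66.9 CPM Acsl4 at 115 CPM Xirp2 to 102 CPM at 1490 CPM, 1 Dox library lies with the DMSO2 libraries, and all 5FU libraries lie at or below 51.8 CPM Acsl4.

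The controls were compared at 24 h as well. None of the 8 genes was called between DMSO1 and DMSO2 in edgeR's model of 10 groups or in DESeq2, against 0.433% of all genes, and 2 (Tfrc and Ftl1) had an unadjusted p below 0.05. Tfrc alone did not overlap between them, against 1.7% of all genes. In an edgeR fit of the 2 control groups alone Tfrc was called (log2 -0.36, FDR = 0.0021). Ftl1 was called in the model of 10 groups without DMSO1 24 h library 2 (log2 0.36, FDR = 0.0056), against 0.29 (FDR = 0.0291) with it. Between 6 h and 24 h in the controls, the log2 change of Ftl1 was -0.10 (FDR = 0.11) in all libraries and -0.15 (FDR = 0.0039) without the 5 that stood apart.

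**Figure D3:**
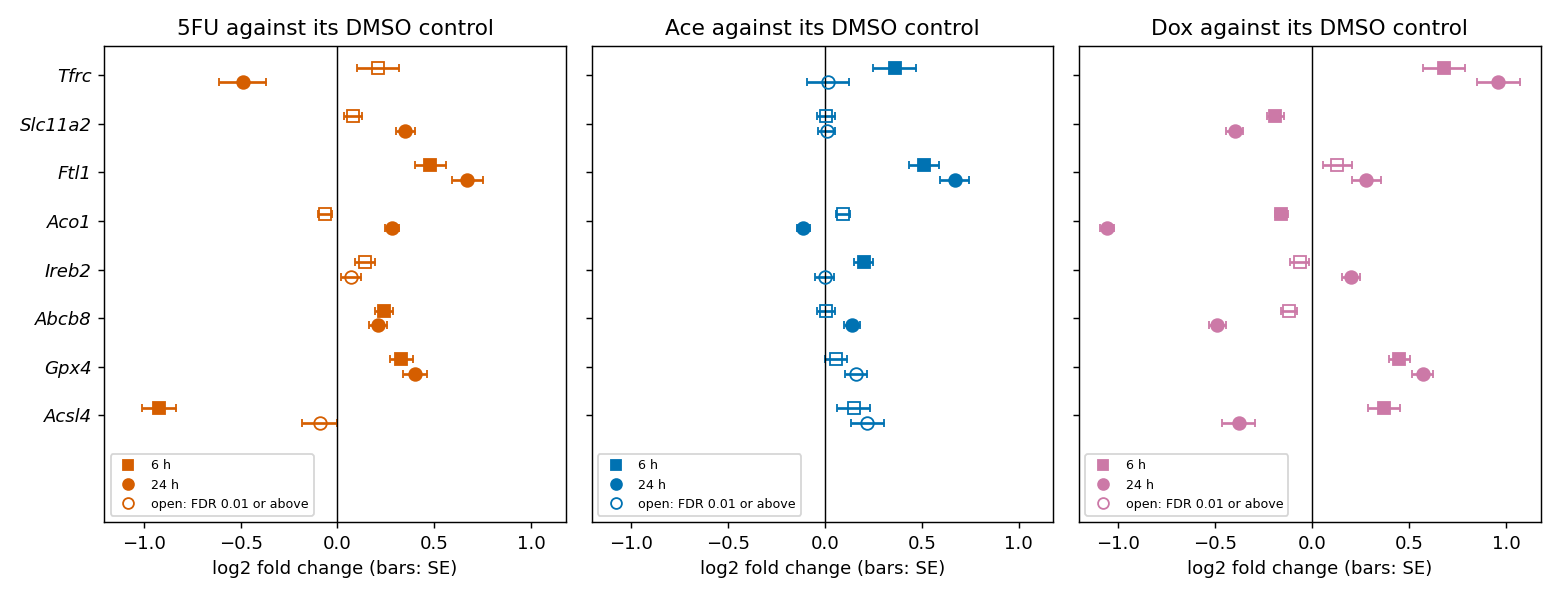
Log2 fold change (x axis, bars ± SE) of the 8 genes against the DMSO control of each drug, squares at 6 h and circles at 24 h, filled where the FDR was below 0.01. Dox at 24 h has all circles filled, from -1.06 for Aco1 to 0.96 for Tfrc, and in Ace the 2 largest values are the Ftl1 rises of 0.51 and 0.67.

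Whether a response differed between the times was tested for each drug. In Dox the 24 h effect differed from the 6 h effect for 5 of the 8 genes (64.8% of all genes), in 5FU for 4 (39.5%) and in Ace for 1 (11.6%), which was Aco1. For Tfrc the Dox effect differed by 0.28 between the times (SE 0.15, FDR = 0.0877), which did not pass, and the 5FU effect turned by -0.70 (SE 0.16, FDR = 2.87e-04).

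Drug effects were also set against each other. At 24 h the Dox and Ace effects, which share the DMSO2 libraries and so reduce to Dox against Ace directly, differed for all 8 genes, against 80.6% of all genes. Tfrc was higher in Dox by 0.94 (SE 0.11, FDR = 5.02e-12), and Aco1 was lower by 0.96 (SE 0.04, FDR = 6.35e-35). The Dox and 5FU effects at 24 h differed for 5 genes (71.1% of all genes): Tfrc by 1.45 (SE 0.16), Aco1 by -1.35 (SE 0.05), Slc11a2 by -0.75 (SE 0.07), Abcb8 by -0.70 (SE 0.06) and Ftl1 by -0.38 (SE 0.11). At 6 h Dox differed from Ace for 6 genes (62.1%) and from 5FU for 5 (45.9%). The latter count was 3 without Dox 6 h library 6, where Tfrc (FDR = 0.012) and Ftl1 (FDR = 0.01) were lost. Each call was also lost without other single libraries. Tfrc had FDR = 0.035 without DMSO1 6 h library 2, and Ftl1 0.025 without 5FU 6 h library 1. With scaling by library size alone the Tfrc FDR was 0.025, and with the compared groups only 0.049. Between Dox and Ace at 6 h, Tfrc was lost without any of several libraries (FDR = 0.075 without Dox 6 h library 4). Its FDR there was 0.1 with library size alone and 0.034 with the compared groups only.

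A wider set of 93 genes of iron and ferroptosis biology was read in the same fit, and 90 of them had a row (Ftmt, Flvcr1 and Nfs1 were not analysed here). Of the 22 genes of cellular iron transport and its control, 4 rose and 14 fell in Dox at 24 h, with a median log2 fold change of -0.67. The called share was 81.8%, near the 81.4% of all genes. The same list had 3 rises and 12 falls in Ace (68.2% called, against 37.2% of all genes; median -0.38) and 4 rises and 7 falls in 5FU (50%, against 55.8%; median -0.14) at 24 h. Over time in the controls 12 of these genes rose and 4 fell (72.7%, against 64.6%).

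Fibroblast markers, and those of other cell types, moved in the same comparisons. All 7 fibroblast markers were lower in Dox, in Ace and in 5FU at 24 h (median log2 fold changes -2.19, -1.24 and -1.26), and all 7 rose over time in the controls. Their summed level was 13600 to 17500 CPM in DMSO2, 6920 to 8880 CPM in Ace and 1820 to 3830 CPM in Dox at 24 h, and 9310 to 18800 CPM in DMSO1 and 5010 to 5670 CPM in 5FU. Lrp1, an endocytic receptor that also takes up haem bound to hemopexin, fell in 5FU (log2 -1.45, SE 0.20) and Ace (-0.68, SE 0.18) at 24 h. Bmp6 (-0.62), the ligand that induces hepcidin, and Heph (-0.57), a ferroxidase, fell in Ace as well. Endothelial markers were lower too, 4 of 6 in Ace and 5 of 6 in 5FU at 24 h (medians -0.74 and -0.79). Of 9 macrophage markers, 5 were lower in Ace, and in 5FU 3 were lower and 1 higher. Over time in the controls 7 macrophage markers rose and 0 fell, and 3 endothelial markers rose and 2 fell. The part of the shares of these cell types in these values was not tested.

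Of this list, Steap3 and Hjv moved furthest in Dox. Steap3, the endosomal reductase that works between Tfrc and Slc11a2, measured 97.1, 117 and 127 CPM against 18.1, 19 and 22 CPM in DMSO2 at 24 h. It rose 5.82-fold (log2 2.54, SE 0.07, FDR = 3.25e-42), with no overlap. Hjv, a co-receptor of bone morphogenetic proteins, measured 2.58, 3.49 and 3.69 CPM against 63.9, 68.7 and 76.2 CPM and fell 21-fold (log2 -4.40, SE 0.15, FDR = 3.9e-36).

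Genes that act directly on the listed proteins were read beside them. Fbxl5, the iron-sensing ligase subunit that removes the Ireb2 protein, fell in Dox by 0.94 at 6 h and by 1.07 at 24 h on the log2 scale, from 47.3 to 52.3 CPM in DMSO2 to 21.6 to 25.4 CPM in Dox at 24 h. At 6 h it also fell in 5FU (-0.34) and rose in Ace (0.28, with overlapping libraries), and it was called in neither at 24 h. Ncoa4, the receptor that delivers ferritin to autophagy, rose in Dox (0.20 and 0.38) and in 5FU at 24 h (0.39). Tf, the transferrin gene, fell in Dox at 24 h by 1.41 and in Ace at 24 h by 0.26.

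Of 32 genes of mitochondrial iron, iron-sulphur clusters and haem, 11 rose and 19 fell in Dox at 24 h (93.8% called, against 81.4% of all genes), 12 rose and 4 fell in Ace (50%, against 37.2%), and 15 rose and 4 fell in 5FU (59.4%, against 55.8%). Slc25a28, the mitochondrial iron importer mitoferrin-2, rose at 24 h in all 3 drugs, by 0.93 in Dox, 0.65 in 5FU and 0.29 in Ace. In 5FU the cluster assembly genes Iba57 (0.93) and Iscu (0.66) were among the largest rises of the wider set at 24 h.

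Hmox1, the haem oxygenase that frees iron from haem, had opposite values in Dox at the 2 times. It measured 75.3, 81.7 and 130 CPM against 146, 151 and 164 CPM in DMSO2 at 6 h, a fall of 0.78 (SE 0.13, FDR = 2.33e-07). At 24 h it measured 153, 260 and 378 CPM against 56.5, 65.1 and 69.3 CPM, a rise of 2.01 (SE 0.13, FDR = 6.48e-22). It rose also in Ace at both times (0.85 and 1.12) and in 5FU at 6 h (0.78). Alas1, the first enzyme of haem synthesis, rose in Dox by 0.59 and 1.13. Further haem synthesis genes, named after their values were seen, were Urod (-1.69), Alad (-1.52) and Cpox (1.97) in Dox at 24 h.

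**Figure D4:**
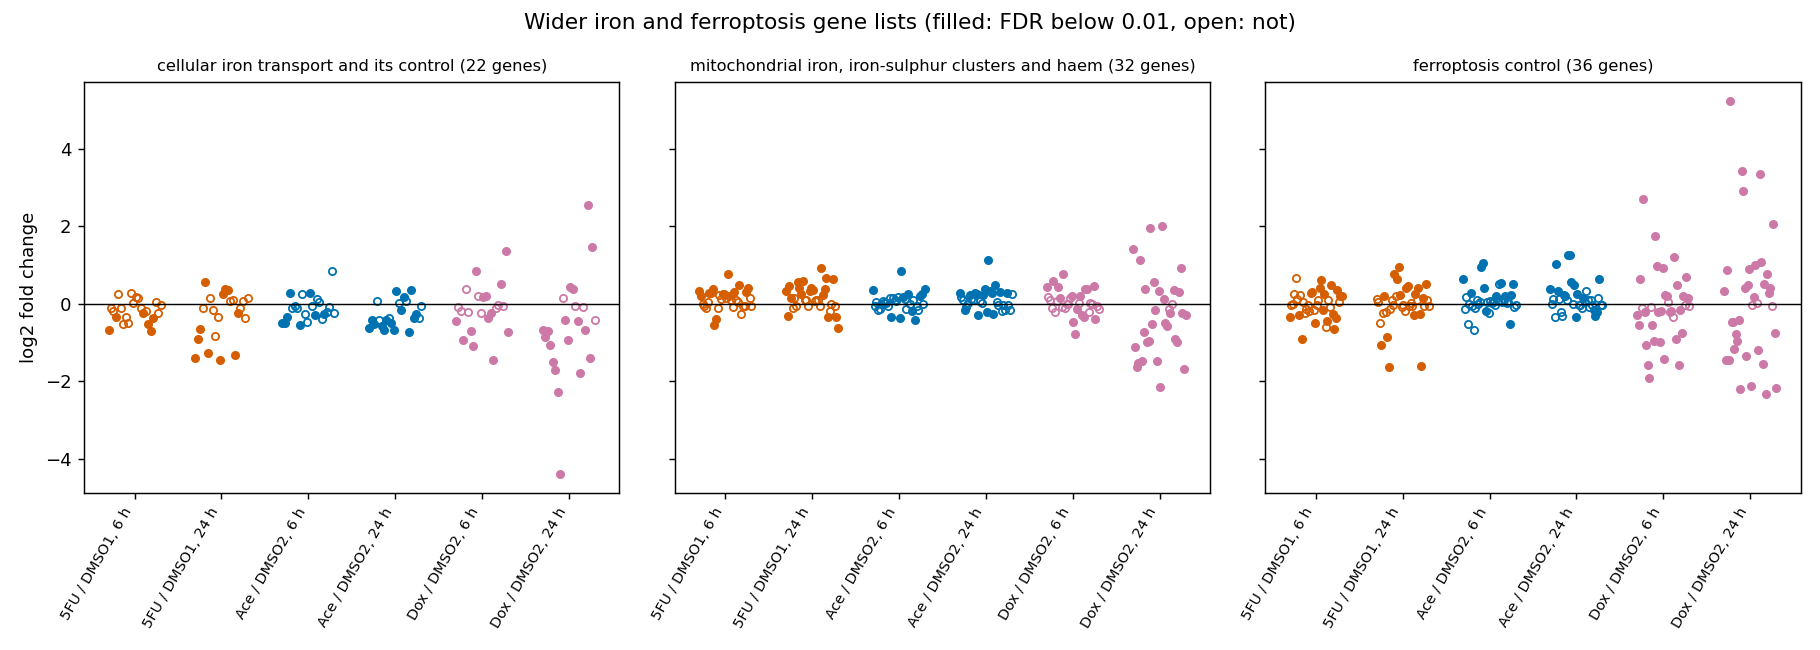
Log2 fold change of each gene of the 3 wider lists (22, 32 and 36 genes with a row) in the 6 drug comparisons, 1 point a gene, filled where the FDR was below 0.01. The spread is widest in Dox at 24 h, from -4.40 (Hjv) to 5.24 (Alox5), and in Ace the points lie between -0.72 and 1.27 at 24 h.

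Of 36 genes of ferroptosis control, 17 rose and 16 fell in Dox at 24 h (91.7% called, against 81.4% of all genes), 11 rose and 4 fell in Ace (41.7%, against 37.2%), and 11 rose and 6 fell in 5FU (47.2%, against 55.8%). Gclc, the catalytic subunit of the enzyme that limits glutathione synthesis, measured 150, 199 and 213 CPM in Dox, 53.2, 59.7 and 64.8 CPM in Ace and 23.8, 25.1 and 26.8 CPM in DMSO2 at 24 h. These 3 groups did not overlap, and the rises were 2.92 in Dox (SE 0.07, FDR = 4.98e-46) and 1.25 in Ace (SE 0.07, FDR = 1.18e-24) on the log2 scale. Txnrd1, a selenoprotein that reduces thioredoxin, rose by 2.06 in Dox and 0.65 in Ace.

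Sepsecs, which completes the synthesis of selenocysteine, fell in Dox at 24 h by 2.32 (SE 0.08, FDR = 2.7e-37) on the log2 scale, and Eefsec, which brings it to the ribosome, by 2.20 (SE 0.08, FDR = 3.33e-36). Other genes of selenocysteine synthesis or insertion, named after their values were seen, went both ways: Secisbp2 (-1.55) and Pstk (-1.20) were lower and Sephs2 (0.50) was higher. Aifm2, which defends membranes from peroxidation apart from Gpx4, measured 11.8, 14.5 and 15.6 CPM against 37, 38.6 and 40.5 CPM in DMSO2 at 24 h and fell by 1.45 (SE 0.05, FDR = 1.15e-34).

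Slc7a11, the cystine importer that supplies glutathione synthesis, had low levels throughout. In 5FU at 24 h it measured 3.52, 3.94 and 4.31 CPM against 9.94, 12 and 14 CPM in DMSO1 and fell by 1.60 (SE 0.12, FDR = 3.16e-18). Chac1, which degrades glutathione, fell there by 1.63 and Gsr, which regenerates it, rose by 0.96. In Dox, Slc7a11 fell at 6 h (-0.75) and rose at 24 h (0.29, SE 0.10, FDR = 0.00535). Alox5 (5.24), Gch1 (3.44) and Ptgs2 (3.36) had the largest values of this list in Dox at 24 h, with mean counts of 77.8, 88.1 and 76.1 over all libraries, and were named after their values were seen.

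Markers of the cultures' cell types moved with every Dox result at 24 h. The cardiomyocyte sum was 11900 to 15100 CPM in Dox against 31400 to 40900 CPM in DMSO2, with 6 of 7 markers lower and Myl2 not called (log2 0.03). Endothelial markers (6 of 6) and macrophage markers (9 of 9) were lower too, with sums of 21 to 46.2 against 237 to 305 CPM and 25.7 to 37.2 against 72.6 to 94.3 CPM. The erythroid list, whose cells use Tfrc heavily, had all 5 measured markers higher, with a sum of 46.3 to 85.5 CPM against 14 to 27 CPM, and the other markers of that list were not analysed here. At 6 h the cardiomyocyte sums of Dox (31100 to 35800 CPM) and DMSO2 overlapped, with 3 of 7 markers higher and 3 lower. The endothelial sum did not overlap (73.2 to 121 against 208 to 264 CPM, 6 of 6 markers lower). Of the fibroblast markers 5 of 7 were lower, with sums of 7440 to 9840 against 9220 to 13900 CPM, and of the erythroid markers 4 of 5 were higher, with sums of 51.8 to 92 against 27.2 to 66.6 CPM. The macrophage sums overlapped (49.4 to 60.6 against 47.3 to 58.9 CPM). In 5FU at 24 h the cardiomyocyte sum was 21800 to 24100 CPM against 30000 to 35400 CPM in DMSO1. Of the 7 markers 4 were lower and 1 was higher (Tnni3, log2 0.30), and Tnnt2 and Myl2 were not called. The erythroid sum was higher there too, at 50.4 to 77.7 against 22.9 to 34.2 CPM (3 of 5 markers higher and 1 lower), in a comparison in which Tfrc fell. Over time in the controls, where Tfrc also fell, 3 of 5 erythroid markers were lower and 0 higher (median log2 fold change -0.76). The part of these markers in the results was not tested.

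The genes whose log2 CPM followed a listed gene most closely over the 65 libraries were ranked among 10508 genes that have a symbol and reach 100 counts on average. For Tfrc these were Gsta5 (Pearson r = 0.94), Gtf2f2 (0.936) and Il1rl1 (0.934). For Gpx4 they were Ost4 (0.96), Uqcrq (0.951) and Pebp1 (0.944). The libraries share their groups and scaling, and these values are descriptions.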

How the data were processed

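RNA from 65 cultures was sequenced, and the deposited values are estimated counts per gene. Per the study's methods the authors obtained them from kallisto 0.46.0 through tximport, and dropped genes of low count. The deposited values are whole numbers whose totals differ between libraries, and were used as counts not scaled to library size. Entrez identifiers were matched to GRCr8 RefSeq symbols, which 14009 of 14554 genes had. Groups came from the labels. Counts were scaled with TMM and fitted in R 4.3.3 with edgeR 4.0.16 (glmQLFit, glmQLFTest) in 1 model of 10 groups, after a filter (10 counts in any 1 library) that removed no gene. FDR is the Benjamini-Hochberg adjusted p over all genes, with calls below 0.01. CPM used TMM-scaled totals. DESeq2 1.42.0, other scalings, filters and each library left out were alternatives. The fit was tested on simulated data. The genes and lists were chosen with earlier results of these data known. Of the wider lists, the text names the 3 largest rises and 3 largest falls per drug at 24 h among called genes with a mean count of at least 100, and 9 genes chosen for their role; exceptions are marked, and a gene that the rule names is not reported here. Figures were drawn with matplotlib 3.10.9.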

Additional observations from a re-analysis of the deposited data

Results flagged for a closer look

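A single library lay far from the rest of its group for 2 of the genes. Ftl1 was high in DMSO1 6 h library 4 (367 CPM, next 320) and in Dox 6 h library 4 (385 CPM, next 332). Abcb8 was low in DMSO2 6 h library 3 (63.1 CPM, next 66.3) and in Ace 6 h library 6 (61.4 CPM, next 66.5). These 4 came from 80 groups of libraries checked, and chance marks about 1 in 20 groups.

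The effect of a drug at 24 h differed from that at 6 h in 10 of 24 tests of the difference itself (edgeR, FDR below 0.01). For 5FU the differences on the log2 scale were -0.70 for Tfrc, 0.27 for Slc11a2, 0.35 for Aco1 and 0.83 for Acsl4, a gene whose DMSO1 level at 6 h was above that of DMSO2. For Ace the difference was -0.20 for Aco1. For Dox they were -0.21 for Slc11a2, -0.91 for Aco1, 0.26 for Ireb2, -0.37 for Abcb8 and -0.75 for Acsl4. The Slc11a2 value in Dox lost its call without Dox 24 h library 2 (FDR = 0.013), Dox 24 h library 7 (0.014) or DMSO2 6 h library 6 (0.01).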

How the results depend on the processing

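No paired analysis was possible because the columns carry no replicate numbers. Of 29 calls of the 8 genes against drug controls, 26 held in every fit that left out 1 library, and 26 held under every other alternative at FDR below 0.01. For Ace at 24 h (3 genes called) the count was 5 in a fit of the compared groups only, 5 at FDR below 0.1 and 5 without the 5 libraries that stood apart (chosen after seeing the data), and leaving out 1 library gave 1 to 4, the lowest without Ace 24 h library 2. For DMSO1 against DMSO2 at 6 h (1 called) it was 2 with library size only and 3 at FDR below 0.1. At 24 h (0 called) it was 1 with the compared groups only, 2 at FDR below 0.1 and 0 to 1 without 1 library. For the Ace effect between times (1 called) it was 0 with library size only and 2 at FDR below 0.1. Dox against 5FU at 6 h (5 called) ranged from 3 to 5 without 1 library. The wider set in 5FU at 6 h, with 39 called, had 59 at FDR below 0.1. With library size only the median of all genes was -0.15 in Dox at 6 h, against 0.003 in the main fit. Between the Dox effects at the 2 times it was 0.27, against 0.065. Slc11a2 was then -0.01 and Abcb8 -0.17 (FDR = 0.027) between those effects. Values that changed sign were of results that were not called and stayed within 0.08 of 0. With library size only they were Slc11a2 (-0.024) and Abcb8 (-0.024) in Ace at 6 h, Ftl1 in Dox at 6 h (-0.025), Ireb2 in Ace at 24 h (0.056), Abcb8 between 5FU effects (0.041), Gpx4 between controls at 6 h (-0.079), and Aco1 (0.028), Abcb8 (0.011) and Gpx4 (0.013) between controls at 24 h. Slc11a2 between Ace effects was -0.0013 with DESeq2's size factors, -0.0024 with filterByExpr and -0.0014 in DESeq2. Ireb2 in Ace at 24 h was 0.0065 with filterByExpr and 0.0044 with the compared groups only. Gpx4 between controls at 6 h was -0.002 with DESeq2's size factors, -0.00032 with filterByExpr, -0.0026 with the compared groups only and -0.0019 in DESeq2. Without 1 library, ranges that crossed 0 were those of Tfrc (-0.015 to 0.052), Slc11a2 (-0.0061 to 0.04) and Ireb2 (-0.017 to 0.021) in Ace at 24 h, Slc11a2 (-0.0067 to 0.018) and Abcb8 (-0.0047 to 0.039) in Ace at 6 h, Slc11a2 between Ace effects (-0.014 to 0.033), Aco1 (-0.023 to 0.014) and Gpx4 (-0.045 to 0.042) between controls at 6 h, Gpx4 between controls at 24 h (-0.049 to 0.0015) and Aco1 over time in controls (-0.0021 to 0.036). The cause was not tested.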
